A study of Homo sapiens with 4 samples.

Results

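The CREB3 family and the COPII coat genes were followed after knockdown of the lncRNA LOC730101 in darolutamide-resistant prostate cancer cells. The members were 10 of the 60606 genes in the deposited count table, taken by name: the transcription factor genes CREB3, CREB3L1, CREB3L2 and CREB3L4, and the coat genes SEC23A, SEC23B, SEC24A, SEC24B, SEC24C and SEC24D. The set was selected on differences between siLOC730101 and siControl in these same libraries, in which CREB3L2 was among the lower genes. The values of the members in that comparison are therefore given as a description. Counts of members past the threshold of the fit over all genes are stated, and nothing is read from them.

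The cells were LNCaP-DaroR, a hormone insensitive line made from LNCaP cells, an established androgen receptor-positive prostate cancer line, by long culture in rising amounts of the antiandrogen darolutamide. Both groups carried this resistance. One group received control siRNA (siControl, 2 libraries) and the other a pool of siRNAs against LOC730101 (siLOC730101, 2 libraries). PolyA RNA was sequenced, and parental cells were not compared here. The labels do not say whether the 2 libraries of a group came from separate cultures, so any p-value measures the spread between these libraries only.

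CREB3 family proteins are transcription factors that sit in the membrane of the endoplasmic reticulum (ER). They are carried to the Golgi, where the site-1 and site-2 proteases release the DNA-binding part, which then acts in the nucleus on genes of the secretory pathway. COPII is the coat that buds vesicles from ER exit sites. The small GTPase SAR1 starts the coat, SEC23 and SEC24 form its inner layer, and SEC13 with SEC31 forms the outer cage. SEC24 proteins bind the cargo, and SEC23 speeds GTP hydrolysis on SAR1. CREB3L4 was first described as an androgen-induced factor of the prostate, and CREB3L2 is known to drive SEC23A in cartilage.

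Short stretches of the promoters are shown where they held a match to a motif named below, and binding was not measured. Promoters from RefSeq (GRCh38.p14), each 250 bases before to 50 after a start site, were found for 9 of the 10 members, 11 promoters in all. SEC24D had no entry. They were searched on both strands for the cAMP response element (CRE) TGACGTCA, for TGACGTGG, called UPRE here after the unfolded protein response element that it resembles, and for the ER stress elements ERSE and ERSE-II. The capitals mark the motif, and each stretch reads 5′ to 3′ on the strand of its gene.
CREB3L2, CRE, chr7:138002248-138002275, minus strand: agttcctcggTGACGTCAcagacactcc
SEC23A, UPRE, chr14:39103222-39103249, minus strand: cccctcctctTGACGTGGcagaggcggc
SEC24A, UPRE, chr5:134648596-134648623, plus strand: tgagagtcggTGACGTGGcggcgaggcc

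The CRE of CREB3L2 began 179 bases before the start site, as did the UPRE of SEC24A, and the UPRE of SEC23A began 4 bases before it. Across all 35116 promoters of the RefSeq table, 1.85% held the CRE and 0.729% held the UPRE. Of the 11 promoters of the members, which belong to 9 genes, 1 held the CRE and 2 held the UPRE. Both ER stress elements had 0 matches in the members, and they occurred in 0.0769% and 0.0541% of all promoters. A match is a string of letters in this window and does not show binding.

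The study asked whether LOC730101 acts through miR-1-3p, so the 3′ UTRs of the members were searched for the complement of its seed. The RefSeq sequence of the mature miRNA is shown with the seed, bases 2 to 8, in capitals.
hsa-miR-1-3p: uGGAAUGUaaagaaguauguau
One canonical transcript per gene was used, from a GENCODE annotation on GRCh37, and the positions of these sites are on that build. The sites of the 2 members with a match to the whole seed (ACATTCC, a 7mer-m8 site) are shown, with the matched bases in capitals.
CREB3L2, 7mer-A1 site, chr7:137563582-137563607, minus strand: cccacaccctggcttcCATTCCAtat
CREB3L2, 7mer-m8 site, chr7:137561063-137561088, minus strand: cacacacacacgtgcACATTCCtccc
SEC23B, 7mer-m8 site, chr20:18541437-18541462, plus strand: tagaaaggcttgataACATTCCtgtt

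CREB3L2 had the longest of the members' 3′ UTRs, with 5497 bases, and the CATTCC of its sites began at positions 1631 and 4150. The CATTCC of the SEC23B site began at position 69 of 675 bases. A match to the 6mer CATTCC or longer was found in 4 of the 10 members, the other two being CREB3L1 and SEC24A, and in 33% of the 18982 genes with a 3′ UTR. A 7mer-m8 or 8mer site was found in 2 of the 10 members and in 11.8% of those genes. No member held an 8mer site, that is 0 of 10.

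The library totals ranged from 39213498 to 53368158 counts. Mates of a read pair appear to have been counted apart, as 66.0% to 70.1% of the genes with 1 to 20 counts had an even number in a library. LOC730101, listed as ENSG00000216775 on chromosome 6, had 47.4 and 50.6 CPM (counts scaled to the library total) in siControl and 15.4 and 17.9 CPM in siLOC730101. All 10 markers of LNCaP luminal cells were detected in every library, KLK3 at 1487 to 1916 CPM among them. Of 10 markers of other cells, 6 (PTPRC, COL1A2, DES, KRT5, TP63 and CHGA) were at 0 in every library, and the other 4 reached at most 3.87 CPM. All CPM values here carry TMM factors. Genes were tested with the quasi-likelihood method of edgeR, in which 19349 genes passed the expression filter, and were called at a Benjamini-Hochberg adjusted p under 0.05.

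CREB3L2 was the member with the largest difference. It lies on the minus strand of chromosome 7 from 137874979 to 138002086 (GRCh38), and none of its exon bases are shared with another annotated gene. Its counts were 6882 and 5232 in siControl against 3400 and 3262 in siLOC730101. On the CPM scale these were 127.3 and 111.8 in siControl and 82.8 and 85.9 in siLOC730101. Both siLOC730101 libraries lay below both siControl libraries. The siControl mean was 119.6 ± 11.0 CPM (SD, n = 2) and the siLOC730101 mean was 84.3 ± 2.24 CPM (SD, n = 2), a ratio of 0.705, and the log2 fold change was -0.50 (standard error 0.087). In these bulk libraries, fewer cells with CREB3L2 RNA and less of it per cell cannot be told apart.

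Of the 9 members that passed the expression filter, CREB3L2 was the 1 called lower at the adjusted threshold, beside 0.0724% of all genes tested, and 0 members were called higher, beside 0.212%. DESeq2 gave the same counts of members, and over all genes it called 64 lower and 233 higher. At an unadjusted p under 0.05 in edgeR the counts of members were also 1 lower and 0 higher. Of all 19349 genes tested, 850 were lower and 1244 higher at that unadjusted threshold, 10.8% in either direction. Since this comparison led to the set, nothing is read from these counts. A fit without siControl replicate 1, which had the highest value, gave a log2 fold change of -0.41 for CREB3L2, and it was not called. Such a fit leaves 1 library in a group, which is assumed to vary like the pair of the other group. Over the 14 alternatives the log2 fold change lay between -0.59 and -0.41.

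**Figure D1:**
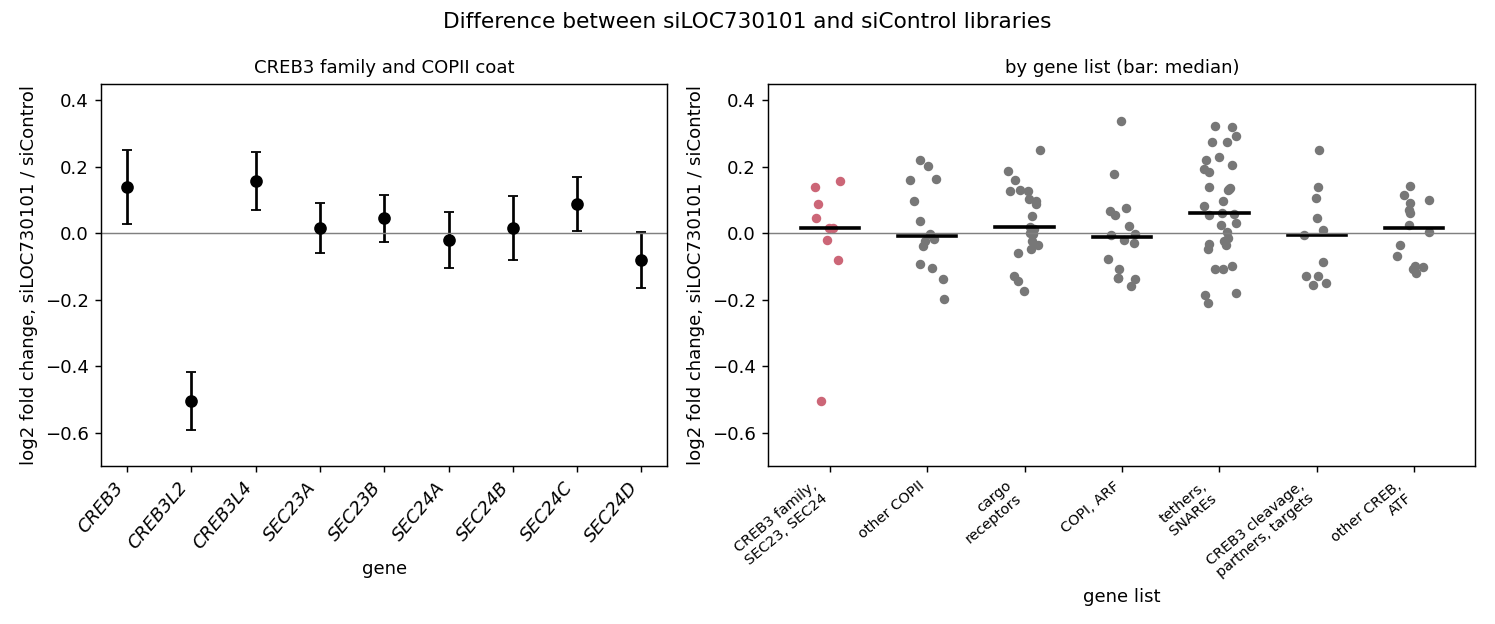
The left panel shows the log2 fold change of siLOC730101 against siControl on the y axis for the 9 tested members, with bars of 1 standard error, and the right panel shows the same quantity for each tested gene of the members and of 6 lists of secretory pathway and bZIP genes, with a line at the median of each. CREB3L2 lies at -0.50, and the other members and all listed genes lie between -0.21 and 0.34.

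The other detected family members had overlapping groups. CREB3, on chromosome 9 from 35732598 to 35736999, encodes the founding factor of the family. It had 53.4 and 54.3 CPM in siControl and 51.8 and 66.7 CPM in siLOC730101. The siLOC730101 libraries lay on either side of both siControl libraries, and the log2 fold change was 0.14 (standard error 0.11). Leaving out siLOC730101 replicate 1 raised it to 0.32, and leaving out siLOC730101 replicate 2 turned it to -0.059, so that its direction rests on a single library.

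CREB3L4, on chromosome 1 from 153967534 to 153974361, had 166.8 and 153.6 CPM in siControl and 164.7 and 192.5 CPM in siLOC730101. The groups overlapped, with siLOC730101 replicate 2 alone above both siControl libraries. The log2 fold change was 0.16 (standard error 0.087), and it was 0.037 without siLOC730101 replicate 2. Without siLOC730101 replicate 1 it was 0.27 and CREB3L4 was called, in a fit where the siControl pair alone gave the spread and 923 of 21482 genes (4.3%) were called higher.

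CREB3L1, known as a factor of bone and collagen secretion, was nearly undetected. Its counts were 2 and 0 in siControl and 0 and 4 in siLOC730101, which is near the 3 counts that a count of 0 allows, and it did not pass the filter. CREB3L3, the family member best known from liver, lies outside the set and had 0 counts in all 4 libraries. The family was thus read from 3 genes in these cells.

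The proportions within the family restate the difference of CREB3L2, which led to the set. Since the shares of a library add up to the whole, a smaller CREB3L2 share by itself raises those of CREB3 and CREB3L4. Levels between genes were compared as CPM per kilobase of exon. CREB3L4 took 55.0% and 53.5% of the summed family level in the siControl libraries and 58.0% and 56.7% in the siLOC730101 libraries. CREB3 took between 31.2% and 34.9%, with overlapping groups. CREB3L2 took 13.8% and 12.8% in siControl and 9.61% and 8.34% in siLOC730101, a difference of the means of -4.36 percentage points. With raw counts not divided by length, in which the long CREB3L2 transcript weighs more, the differences were -9.53 points for CREB3L2 and 7.38 points for CREB3L4, against 3.12 points for CREB3L4 per length. A share within a library does not depend on the scaling between libraries. The summed siControl level of the family was 101.7 ± 4.05 CPM per kilobase (SD, n = 2), against 107.4 ± 13.5 (SD, n = 2) after siLOC730101, and the groups overlapped.

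**Figure D2:**
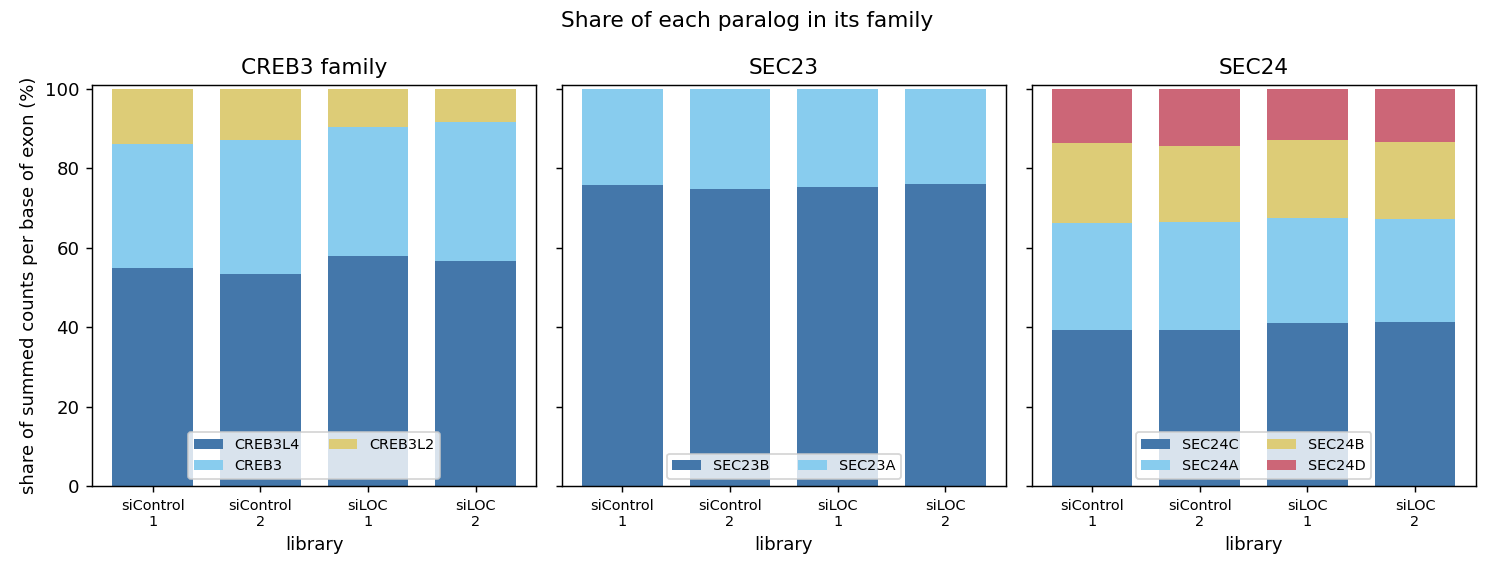
Each stacked bar is 1 library, and the y axis gives the percentage of the summed counts per base of exon that each paralog takes, for the CREB3 family, SEC23 and SEC24 (CREB3L1 is too low to be drawn). The segment of CREB3L2 is 8.34% to 9.61% in siLOC730101 and 12.8% to 13.8% in siControl, while SEC23A stays between 24.0% and 25.1%.

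The SEC23 genes, which encode the GTPase-activating subunit of the inner coat, were close between the groups. SEC23A, on chromosome 14 from 39031919 to 39109646, had 194.4 and 208.1 CPM in siControl and 204.7 and 202.4 CPM in siLOC730101. Both siLOC730101 values lay between the siControl values, and the log2 fold change was 0.017 (standard error 0.075). This is the coat gene with the UPRE nearest its start site.

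SEC23B, on chromosome 20 from 18507520 to 18561415, is the paralog mutated in a congenital anemia. It had 306.5 and 311.2 CPM in siControl and 315.4 and 321.9 CPM in siLOC730101. Both siLOC730101 libraries lay above both siControl libraries, by a log2 fold change of 0.045 (standard error 0.071), and with library size as the only scaling the groups overlapped. SEC23B is also the coat gene whose 3′ UTR holds a match to the whole miR-1-3p seed, and binding was not measured.

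The SEC24 genes encode the cargo adaptors. SEC24A and SEC24B are closely related to each other, as are SEC24C and SEC24D. SEC24A, on chromosome 5 from 134648785 to 134727909, had 115.4 and 107.3 CPM in siControl and 114.2 and 105.2 CPM in siLOC730101. SEC24B, on chromosome 4 from 109433772 to 109540896, had 61.8 and 54.4 CPM in siControl and 60.6 and 57.0 CPM in siLOC730101. The groups overlapped for both genes, with log2 fold changes of -0.021 (standard error 0.084) for SEC24A and 0.017 (standard error 0.096) for SEC24B.

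SEC24C, on chromosome 10 from 73744372 to 73772161, had 124.1 and 115.2 CPM in siControl and 130.4 and 123.9 CPM in siLOC730101. SEC24D, on chromosome 4 from 118722823 to 118838683, had 80.1 and 78.2 CPM in siControl and 76.2 and 73.5 CPM in siLOC730101. The groups overlapped for SEC24C (log2 fold change 0.087, standard error 0.081), and for SEC24D both siLOC730101 libraries were lower (log2 fold change -0.080, standard error 0.084).

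Groups without overlap were found in 3 of the 9 tested members, CREB3L2 and SEC24D lower and SEC23B higher, beside 41.7% of all genes tested. The direction changed in at least 1 alternative for CREB3, SEC23A, SEC24A and SEC24B. The log2 fold changes of the 6 coat genes had a median of 0.017, and that of all genes tested was -0.0021.

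Within SEC24, the share of SEC24C was 39.4% and 39.5% in siControl and 41.1% and 41.4% in siLOC730101. The shares of SEC24A and SEC24D were lower in both siLOC730101 libraries, by 0.802 and 0.974 percentage points between the means. That of SEC24B lay between 19.1% and 20.1% with overlapping groups. Since these shares add up to the whole, a larger SEC24C share by itself lowers the others. In CPM the groups overlapped for SEC24A and for SEC24C. SEC23A took 24.1% and 25.1% of the SEC23 level in siControl and 24.6% and 24.0% in siLOC730101. The summed SEC23 level was 94.3 ± 1.88 CPM per kilobase (SD, n = 2) in siControl and 96.8 ± 0.865 (SD, n = 2) after siLOC730101. Both siLOC730101 libraries lay above both siControl libraries in this sum, by a log2 ratio of 0.038. This sum carries TMM factors, and with library size as the only scaling the groups of SEC23A and of SEC23B each overlapped. Of all genes tested, 41.7% had groups without overlap. The summed SEC24 level in siControl was 56.7 ± 3.09 CPM per kilobase (SD, n = 2), against 57.6 ± 2.41 (SD, n = 2) after siLOC730101, with overlapping groups.

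Ordered by level, SEC23B stood first with 70.5 to 74.1 CPM per kilobase over the 4 libraries, above 97.5% of the genes tested. CREB3L4 followed with 52.9 to 66.3 and CREB3 with 31.7 to 40.8, so that these 2 factors stood above the other 5 coat genes. SEC23A had 22.4 to 24.0 and SEC24C 21.5 to 24.4 CPM per kilobase, and they did not differ beyond their spread. SEC24A had 14.4 to 15.8, CREB3L2 9.40 to 14.5 and SEC24B 10.4 to 11.8 CPM per kilobase. The place of CREB3L2 differed between the groups, which restates the difference that led to the set. In siControl it lay above SEC24B and below SEC24A in both libraries, and in siLOC730101 it lay below SEC24B in both. SEC24D was the lowest detected member with 7.41 to 8.07 CPM per kilobase, above 71.5% of the genes tested.

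**Figure D3:**
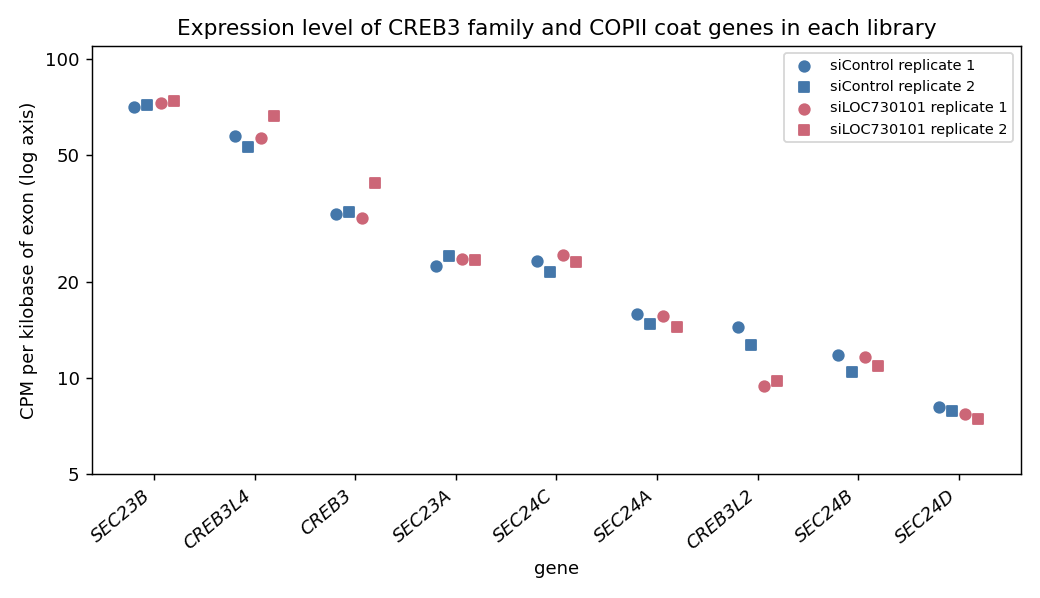
Points are the 4 libraries, colored by group, and the y axis is the level in CPM per kilobase of exon on a log scale for the 9 detected members in order of level. The siLOC730101 libraries of CREB3L2 lie at 9.40 and 9.76, below its siControl libraries at 14.5 and 12.7.

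The place of SEC24C in this order rests on the length used. Exons of a second gene on the opposite strand, ENSG00000279689, cover 42.8% of its exon bases, and the counting command names neither a strand nor an option to count reads that fall on more than 1 gene. ENSG00000279689 itself had 8 to 17 counts per library. When the shared bases were left out of the length, the mean level of SEC24C over the 4 libraries moved from 23.1 to 40.3 CPM per kilobase, and it moved from place 5 to place 3. It then lay above SEC23A in every library, while its range of 37.7 to 42.6 lay within that of CREB3, 34.5 to 44.5, so that these neighbors did not differ beyond their spread. Its share of SEC24 was then 52.5% to 54.6%. The other members shared at most 12.9% of their exon bases with other genes. SEC23A overlaps SEC23A-AS1, and SEC24B overlaps SEC24B-AS1. CREB3L4 overlaps SLC39A1 and JTB, CREB3 overlaps GBA2, and SEC24A overlaps SAR1B, which encodes the GTPase that starts the same coat. This choice does not touch the fold changes, in which the length cancels.

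**Figure D4:**
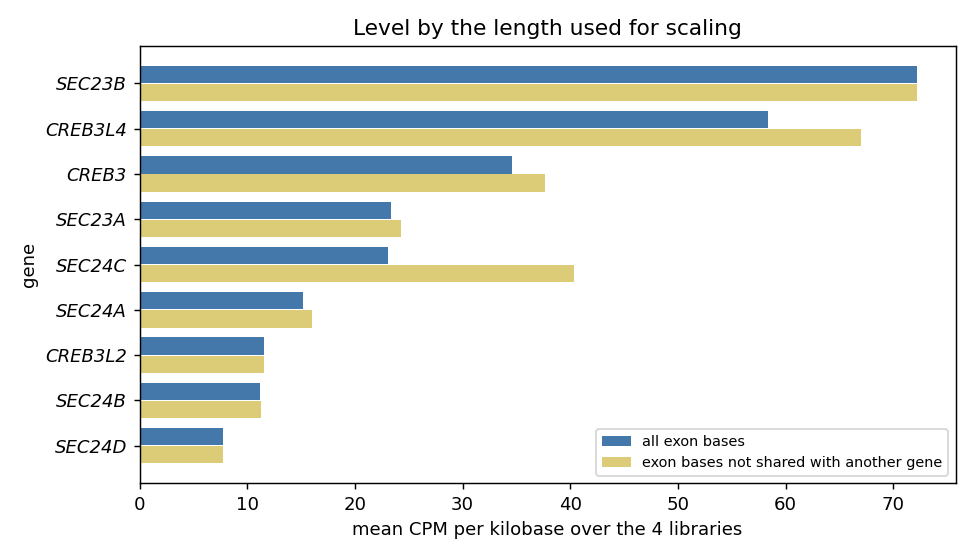
Pairs of bars give the mean level over the 4 libraries in CPM per kilobase, scaled by all exon bases or by the bases that no other gene shares. SEC24C moves from 23.1 to 40.3, and SEC23B, CREB3L2 and SEC24D share no bases and keep their values.

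The rest of the COPII machinery was compared with a list of 15 genes, of which 14 were tested. In edgeR 0 of them passed the adjusted threshold in either direction, and DESeq2 also gave 0. At an unadjusted p under 0.05 in edgeR there were 2, both higher, beside 10.8% of all genes in either direction. These were KLHL12, a ubiquitin ligase adaptor that enlarges COPII carriers (log2 fold change 0.22, standard error 0.085), and PREB, the exchange factor that loads SAR1 at the ER (0.20, standard error 0.087). Without siLOC730101 replicate 1, with the spread from the siControl pair alone, PREB (0.31) was 1 of the 4.3% of all genes called higher. The median log2 fold change of the list was -0.0093. Groups did not overlap for 5 of the 14 on the higher side and 3 on the lower side, beside 41.7% of all genes in either direction.

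The GTPases SAR1A and SAR1B had log2 fold changes of 0.096 and -0.037. The outer cage genes SEC13 and SEC31A had -0.023 and -0.0020. SEC31B, at 1.56 to 3.16 CPM, had 0.16 with a standard error of 0.37. SEC16A, the scaffold of ER exit sites, had 319 to 342 CPM in siLOC730101 and 351 to 375 CPM in siControl (log2 fold change -0.14, standard error 0.074). SEC16B had 0 counts in all libraries. TFG, which organizes exit sites, had a log2 fold change of 0.038. MIA2 and MIA3, which load collagen-sized cargo, had -0.10 and -0.017, SEC23IP had -0.091, and the calcium-binding partners PEF1 and PDCD6 of KLHL12 had 0.16 and -0.20.

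Cargo receptors of ER exit were listed with 22 genes, 21 of them tested. Their median log2 fold change was 0.019, and in edgeR 0 passed the adjusted threshold in either direction, as in DESeq2. At an unadjusted p under 0.05 in edgeR there was 1, beside 10.8% of all genes. The lowest was MCFD2 (-0.17), which acts with LMAN1 in the export of clotting factors, and the highest with a mean normalized count above 50 was TMED1 (0.19). Without siLOC730101 replicate 1, with the spread from siControl alone, TMED3 (0.27) and BCAP31 (0.24), named after their values were seen, were called higher beside 4.3% of all genes.

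For the COPI coat, which returns vesicles to the ER, and its ARF GTPases, 16 of 17 genes were tested, with a median of -0.012. In edgeR 0 passed the adjusted threshold, and 2 had an unadjusted p under 0.05, beside 10.8% of all genes. COPE, a subunit of the coat, had the highest log2 fold change of the list, 0.34 (standard error 0.088, adjusted p = 0.131, edgeR), while COPB1 had the lowest, -0.16. DESeq2 called COPE, and it called 233 of all genes higher. Without siLOC730101 replicate 1, again with the spread from siControl alone and 4.3% of all genes called higher, edgeR called COPE (0.46) and ARF5 (0.30), the latter named after its value was seen. Tethers and SNAREs between ER and Golgi were all tested, 33 genes, with a median of 0.062. In edgeR and in DESeq2 0 of them passed the adjusted threshold, and at an unadjusted p under 0.05 in edgeR 8 were higher and 2 lower. Of all 19349 genes tested, 1244 were higher and 850 lower at that unadjusted threshold. The extremes were USE1 (0.32) and GOSR2 (-0.21), both SNAREs. Without siLOC730101 replicate 1, with the same limit and beside 4.3% of all genes, 4 were called higher, RAB1B (0.29) and the TRAPP subunits TRAPPC1 (0.50), TRAPPC2L (0.36) and TRAPPC6A (0.41), all named after their values were seen.

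The proteases, partners and reported targets of the CREB3 factors formed a list of 11 genes, with a median log2 fold change of -0.0060. In edgeR 0 passed the adjusted threshold, as in DESeq2, and 1 had an unadjusted p under 0.05. MBTPS1 and MBTPS2, which encode the site-1 and site-2 proteases, had log2 fold changes of -0.086 and 0.011. CREBRF, a repressor of CREB3, was the highest of the list with 0.25 (standard error 0.12), and COL1A1 was the lowest with -0.16. The ER stress target HERPUD1 had -0.0060. Of 15 other CREB and ATF factors 14 were tested, 0 passed the adjusted threshold in edgeR or DESeq2, and 0 had an unadjusted p under 0.05. They lay between CREBZF (-0.12) and ATF3 (0.14), with XBP1 at -0.036 and ATF6 at 0.025. For comparison, 55 of all genes tested (0.284%) passed the adjusted threshold in either direction, and 10.8% had an unadjusted p under 0.05.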

How the data were processed

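PolyA RNA of 2 siControl and 2 siLOC730101 libraries of LNCaP-DaroR cells was measured. After trimming and alignment by the authors, the deposited values are raw counts per gene name from featureCounts 2.0.1 with gencode version 41 on hg38, per the file headers. The paper names hg19 and STAR, and the submitters' processing notes name hg38 and BWA; the counts were used as deposited. Exon lengths are also from the deposited table. Value columns outside the 4 libraries numbered 0.

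Counts were filtered with filterByExpr, scaled with TMM and tested with glmQLFit (legacy method) and glmQLFTest in edgeR 4.0.16, R 4.3.3, with group as the only term. Standard errors are from the coefficient and its F statistic. DESeq2 1.42.0 was an alternative. The chi-square per degree of freedom between replicates was 11.27 and 14.2, far above sampling noise. A two-sided exact permutation test of 2 against 2 libraries cannot give a p under 0.333.

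The members and lists were chosen with earlier results of these data known. Named were all members, the other COPII genes, and in each further list the genes past the threshold and the highest and lowest log2 fold change with a mean normalized count above 50, with genes whose exons overlap a member. MBTPS1, MBTPS2, HERPUD1, XBP1 and ATF6 were added for their role. Alternatives were other scalings, filters, tests and quasi-likelihood settings, halved counts, shares of raw counts without length, the replicate number as a block and each library left out. The scaling by unshared exon length was chosen after seeing the data. Motifs were searched in Python 3.11.15.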

Additional observations from a re-analysis of the deposited data

How the results depend on the processing

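Of all genes, 41 were called higher and 14 lower. These became 324 and 113 with no filter beyond 1 count, 141 and 50 with a mean count above 50, 233 and 64 in DESeq2, 485 and 167 with the replicate block, 87 and 24 with the legacy method off, and 113 and 35 with halved counts. With library size only, 35 were lower. Leaving out 1 library gave 77 to 923 higher and 26 to 272 lower, most without siLOC730101 replicate 1; these fits leave a group with 1 library, assumed to vary like the other group. Same-numbered libraries correlated at 0.0481 in their deviations from the group means. With 2 libraries per group this value cannot decide whether the replicate number marks a pair. The cause of the larger counts with the replicate block was not tested.

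Among the members, 0 to 1 were called higher and 0 to 1 lower when a library was left out, and the replicate block changed no member's call. In the COPI list 1 was higher (COPE) with no filter, in DESeq2 and with the replicate block, and 0 to 2 without a library. In the list of tethers and SNAREs 1 was higher (TRAPPC1) with the replicate block, and 0 to 4 without a library. The other COPII genes gave 0 to 1 and the cargo receptors 0 to 2 without a library. The highest count of each list came without siLOC730101 replicate 1.

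Directions that turned were those of SEC23A (-0.014 with upper-quartile factors, -0.021 with library size only, and -0.031 to 0.069 without 1 library), SEC24B (-0.014 and -0.020 in the same scalings, -0.068 to 0.11 without 1 library), SEC24A (-0.073 to 0.034 without 1 library) and CREB3 (-0.059 to 0.32 without 1 library). The cause was not tested. CREB3L2, CREB3L4, SEC23B, SEC24C and SEC24D kept their direction in all 14 alternatives.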
